A study of Homo sapiens with 4 samples.

Results

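The factors of nonsense-mediated mRNA decay (NMD) described here are 9 genes, UPF1, UPF2, UPF3A, UPF3B, SMG1, SMG5, SMG6, SMG8 and SMG9, taken by gene name from the 15902 genes with a listed intron. They hold 161 of the 142206 introns for which both counts were given. SUM159 is an established human breast cancer cell line. Its cells had been given H3B-8800, a small molecule that inhibits the spliceosome, or DMSO, the solvent, for 12 hours and cytoplasmic polyadenylated RNA was sequenced in 2 libraries per group, from biological duplicates. For every intron the files gave the reads lying inside it (intronic reads), and reads spanning it (spliced reads) were obtained by subtraction. Because 1 read can span more than 1 intron and is then counted again, sums over a gene do not count molecules.

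NMD removes mRNAs on which translation stops too early, for instance because an intron that stayed in the mRNA carries a stop codon in the reading frame. UPF1 is an RNA helicase that is phosphorylated by the kinase SMG1, whose activity SMG8 and SMG9 restrain. UPF2 and the paralogs UPF3A and UPF3B connect UPF1 to the exon junction complex, a mark that splicing leaves on mRNA. SMG6 cuts the mRNA, and SMG5 recruits deadenylation and decapping enzymes to phosphorylated UPF1. Several NMD factors are themselves encoded by mRNAs that NMD degrades.

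Library totals ranged from 58000000 to 64000000 reads. Over all listed introns, the intronic part of all intronic and spliced reads was 8.19% and 8.24% in the treated libraries, and 4.23% and 4.24% in the DMSO libraries. The line's label was compared with marker genes: all 6 genes of a mesenchymal-like breast line list were measured, led by VIM (vimentin) at 4920 to 6070 CPM (spliced counts scaled to equal library size, with TMM factors). Of 8 luminal markers, ESR1 and PGR were at 0 in all libraries, and FOXA1, EPCAM and CDH1 were below 1 CPM on average. GATA3 had 3.58 and 3.94 CPM with H3B-8800 against 1.88 and 2.71 and did not pass. KRT8 and KRT18, which fell, were present at 163 to 442 CPM, but the groups overlapped in KRT18 (289 and 361 against 442 and 349). Summed CPM of the luminal list was 457 and 531 in the H3B-8800 libraries against 637 and 554 in the DMSO ones, and that of the mesenchymal-like list, nearly all of it VIM, 5590 and 5370 against 6500 and 6430. In the latter list VIM and AXL fell, CD44, EGFR and FN1 rose and CAV1 did not pass. Blood and endothelial markers summed to between 2.64 and 5.07 CPM, with CD3E at 0. Whether these differences have a part in the results below was not tested.

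The sequences at the intron ends are shown first because the ratios reported below compare RNA that keeps an intron with RNA in which its ends were joined. Coordinates are hg38, 1-based, and sequences were read from GENCODE release 29 transcripts that run across a splice site, 5′ to 3′ on the gene's strand. The last 50 bases of an intron could be read for 20 of the 161 introns, and all 20 close in AG (capitals). The first 3 lines below are introns whose intronic-to-spliced ratio rose, of 2787, 3101 and 3450 bp. The other 2, of 110 and 80 bp, are introns of UPF1 and SMG9 that held 0 intronic reads in all 4 libraries. A short intron leaves little room for a read inside it, so 0 reads there do not show that it was fully spliced.
UPF1 intron 15 (chr19:18860271-18860320, plus strand): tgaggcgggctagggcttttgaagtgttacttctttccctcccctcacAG
SMG9 intron 9 (chr19:43734496-43734545, minus strand): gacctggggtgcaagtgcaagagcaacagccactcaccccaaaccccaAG
SMG6 intron 18 (chr17:2061623-2061672, minus strand): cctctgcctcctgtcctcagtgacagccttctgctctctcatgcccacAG
UPF1 intron 21 (chr19:18865511-18865560, plus strand): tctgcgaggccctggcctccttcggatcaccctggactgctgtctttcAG
SMG9 intron 3 (chr19:43747898-43747947, minus strand): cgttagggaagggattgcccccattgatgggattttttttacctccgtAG
Pyrimidines made up 60% of the bases shown for UPF1 intron 15, 44% for SMG9 intron 9 and 72% for SMG6 intron 18. They made up 64% for UPF1 intron 21 and 54% for SMG9 intron 3. The 3 raised introns therefore lie on both sides of the pair without intronic reads, and over the 20 readable ends the range was 44% to 72%. SMG9 intron 9 had the fewest thymines of the 5, 8%, against 34% in SMG9 intron 3.

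The second set shows what reading an intron would add to the protein-coding frame. The 5′ end could be read for 22 of 159 introns within coding regions, and all 22 open with GT. In 18 of these the frame carried over from the exon met a stop codon within the readable bases, after a median of 35.5 intron bases and after 4 to 108. Each line starts at the codon that the splice site interrupts, with its exon bases where there are any (none in SMG9 intron 7), and ends at the stop codon (capitals).
UPF3B intron 9 (chrX:119838321-119838368, minus strand): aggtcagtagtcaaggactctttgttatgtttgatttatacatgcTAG
UPF3A intron 4 (chr13:114286629-114286709, plus strand): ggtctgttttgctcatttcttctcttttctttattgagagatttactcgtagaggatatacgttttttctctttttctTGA
SMG9 intron 7 (chr19:43740059-43740106, minus strand): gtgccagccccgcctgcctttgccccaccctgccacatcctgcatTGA
SMG8 intron 1 (chr17:59211810-59211818, plus strand): ggtagcTAA
The stop ended 46 bases into UPF3B intron 9, 80 into UPF3A intron 4, 48 into SMG9 intron 7 and 8 into SMG8 intron 1. UPF3B intron 9 is among the introns with a raised ratio below. UPF3A intron 4 and SMG9 intron 7 did not pass that test, and SMG8 intron 1 had too few intronic reads to be tested. A stop in the frame is a feature of these letters and was found in readable introns whatever their counts.

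Spliced reads of the 9 genes moved in both directions after H3B-8800. UPF1, UPF2, SMG1 and SMG5 rose, UPF3A, SMG6 and SMG9 fell, and UPF3B and SMG8 did not pass the test (edgeR's quasi-likelihood test over 9468 genes, Benjamini-Hochberg adjusted p under 0.05). That is 4 genes up and 3 down of 9, where 32.8% of all tested genes rose and 32.7% fell, so the number of calls is near the background. In bulk RNA, fewer cells with an mRNA and less of it per cell cannot be told apart. In these 7 genes no H3B-8800 library overlapped a DMSO library in CPM, 4 being higher and 3 lower, which 41.6% and 40.9% of all genes were. The median log2 change of the 9 genes was 0.07, beside 0.01 over all genes. With library totals in place of TMM scaling the median of all genes was -0.16, and UPF2 and UPF3B then changed sign, to -0.01 and -0.11.

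**Figure D1:**
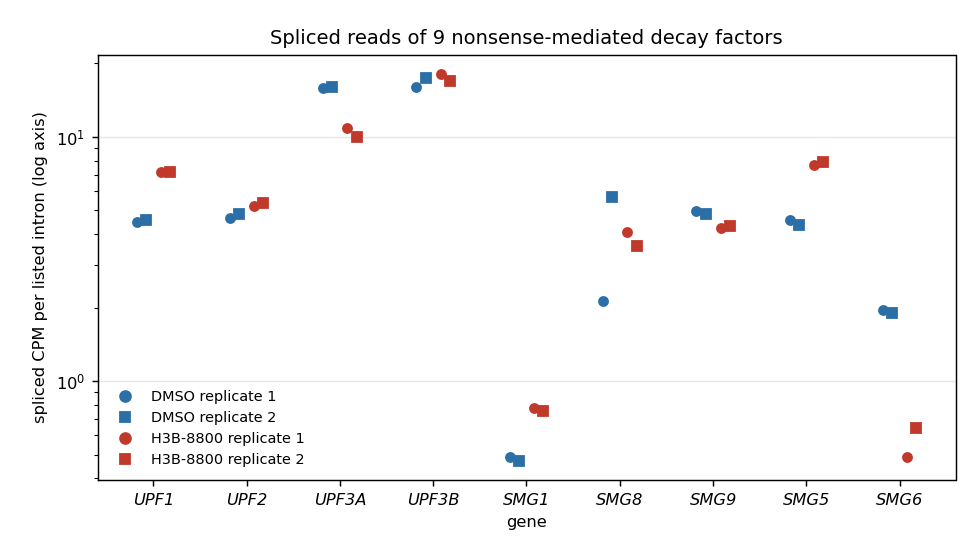
Spliced CPM divided by the number of listed introns, on a log axis, for each gene and library (blue DMSO, red H3B-8800, circles replicate 1, squares replicate 2). UPF1, SMG1 and SMG5 lie higher and UPF3A and SMG6 lower with H3B-8800, and the DMSO libraries of SMG8 lie far apart.

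UPF1, the helicase at the centre of the pathway (chromosome 19, plus strand, 22 of its transcript's 23 introns listed), had 1806 and 1968 spliced reads in the H3B-8800 libraries and 1419 and 1442 in the DMSO ones. On the CPM scale these were 158 and 158 against 98.6 and 100, or 158 ± 0.42 against 99.5 ± 1.2 (SD, n = 2). Both treated libraries were far above both controls. The log2 change was 0.67 (SE 0.06, adjusted p = 4.76e-07 in edgeR). Of its 22 introns with a mean of at least 10 spliced reads, 19 were higher in both treated libraries on the CPM scale, none was lower in both and 3 overlapped, while over all such introns 33.1% were higher and 38.2% lower. Introns of 1 gene share its level and part of its reads. Such counts, here and below, are therefore not independent support for the gene's call. The rise was of similar size along the gene, 1.63-fold over introns 1 to 9, 1.58-fold over introns 10 to 16 and 1.58-fold over introns 17 to 23.

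UPF2, the adaptor between UPF1 and the UPF3 proteins (chromosome 10, minus strand, 20 of 21 introns), differed little. Its 1193 and 1335 spliced reads in the H3B-8800 libraries and 1334 and 1386 in the DMSO ones correspond to 104 and 107 CPM against 92.7 and 96.4, means of 106 ± 2.3 and 94.6 ± 2.6 (SD, n = 2). The groups did not overlap, but by a small margin. The log2 change of 0.16 (SE 0.07, adjusted p = 0.0409) passed in edgeR with all libraries and was lost in DESeq2 (0.118), without the filter on low counts (0.051), with library totals (0.875) and without any 1 of the 4 libraries (0.0627 to 0.234). Of 19 introns with enough spliced reads, 7 were higher, none lower and 12 overlapped, beside 33.1% higher and 38.2% lower over all such introns. Relative to UPF1, per listed intron, UPF2 stood at 0.727 and 0.746 with H3B-8800 and at 1.03 and 1.06 with DMSO.

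UPF3A, the less active of the UPF3 paralogs in NMD (chromosome 13, plus strand, 7 of 8 introns), had 877 and 865 spliced reads in the H3B-8800 libraries against 1594 and 1606 in the DMSO ones. In CPM these were 76.6 and 69.6 against 111 and 112, or 73.1 ± 5.0 against 111 ± 0.61 (SD, n = 2). Treated libraries were well below the controls. The log2 change was -0.61 (SE 0.07, adjusted p = 5.95e-06 in edgeR). Lower values were found at 6 of its 7 introns, where 38.2% of all introns with enough spliced reads were lower, and overlap only at intron 1. The last intron, intron 8, went from 9.45 and 8.69 CPM with DMSO to 1.84 and 3.54 with H3B-8800, a larger relative difference than at intron 6, which went from 33.1 and 33.3 to 26.0 and 23.8. GENCODE lists 3 UPF3A pseudogenes on other chromosomes, so reads could be shared with them.

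UPF3B, the paralog that activates NMD (chromosome X, minus strand, 8 of 10 introns), had 145 and 135 CPM in the H3B-8800 libraries and 128 and 139 in the DMSO ones, which overlap. Means were 140 ± 6.4 and 134 ± 7.6 (SD, n = 2), from 1654, 1683, 1845 and 2000 spliced reads, and the log2 change of 0.07 (SE 0.07, adjusted p = 0.386) did not pass. Of its 8 introns 2 were higher, introns 3 and 6, 2 were lower, introns 1 and 2, and 4 overlapped. Over all introns with enough spliced reads 33.1% were higher and 38.2% lower. The level of UPF3A relative to UPF3B, per listed intron, was 0.606 and 0.587 in the H3B-8800 libraries and 0.987 and 0.918 in the DMSO ones. This ratio was thus lower in both treated libraries than in both controls. Its size depends on which introns are listed, so it does not show how close the paralogs' levels were.

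SMG1, the kinase of UPF1 (chromosome 16, minus strand, all 62 introns listed), had the lowest level per listed intron in DMSO. Its 550 and 584 spliced reads in the H3B-8800 libraries and 435 and 420 in the DMSO ones gave 48.1 and 47.0 CPM against 30.2 and 29.2, means of 47.5 ± 0.74 and 29.7 ± 0.73 (SD, n = 2). Replicates lay close together and the groups were apart. The log2 change was 0.68 (SE 0.09, adjusted p = 1.23e-05 in edgeR). The rise was unequal along the gene: 2.31-fold over introns 1 to 21, from 71 and 52 reads with DMSO to 107 and 129, 1.8-fold over introns 22 to 42, and 1.36-fold over introns 43 to 62, from 273 and 260 to 296 and 306 before scaling. These folds are on the CPM scale and their difference was not tested. Only 18 SMG1 introns had a mean of at least 10 spliced reads. Of these 12 were higher, none lower and 6 overlapped, beside 33.1% higher and 38.2% lower over all such introns. GENCODE lists 7 SMG1 pseudogenes, all on chromosome 16, and reads that could come from these near copies make the SMG1 values uncertain.

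SMG8, an inhibitory partner of SMG1 (chromosome 17, plus strand, 3 introns), had 140 and 133 spliced reads in the H3B-8800 libraries, and 92 and 244 in the DMSO ones. In CPM this was 12.2 and 10.7 against 6.40 and 17, or 11.5 ± 1.1 against 11.7 ± 7.5 (SD, n = 2). The treated libraries lay between the controls. Its DMSO replicates differed 2.65-fold, where the median gene with 50 to 500 reads differed 1.1-fold and 99% differed by under 1.79-fold; 11 of 4254 such genes differed more. With all libraries the log2 change was -0.03 (SE 0.32, adjusted p = 0.944). Without DMSO replicate 1 it was -0.57 (adjusted p = 0.0229), and without DMSO replicate 2 it was 0.83 (adjusted p = 0.0121), so 1 control library decided both the sign and the call. The same spread was seen at each intron: 31 and 85 spliced reads in DMSO at intron 1, 24 and 75 at intron 2, and 37 and 84 at intron 3.

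SMG9, the other partner of SMG1 (chromosome 19, minus strand, 13 introns), had 628 and 696 spliced reads in the H3B-8800 libraries and 928 and 906 in the DMSO ones, or 54.9 and 56.0 CPM against 64.5 and 63.0. Means were 55.5 ± 0.81 and 63.8 ± 1.1 (SD, n = 2). The groups did not overlap. Of 12 introns with enough reads 7 were lower, none was higher and 5 overlapped, beside 38.2% lower and 33.1% higher over all such introns. The log2 change of -0.20 (SE 0.07, adjusted p = 0.0296 in edgeR) was lost in DESeq2 (0.0952) and without any 1 of the 4 libraries (0.0667 to 0.121), where the change was -0.18 to -0.23. It was -0.38 (0.000475) with library totals and -0.30 (0.00545) without the intron with most reads. Per listed intron SMG9 stood at 5.45 and 5.68 times SMG1 with H3B-8800 and at 10.2 and 10.3 times with DMSO.

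SMG5, which brings decay enzymes to UPF1 (chromosome 1, minus strand, 21 introns), had the highest rise of the 9 genes. Spliced reads numbered 1850 and 2051 in the H3B-8800 libraries and 1383 and 1322 in the DMSO ones, which is 162 and 165 CPM against 96.1 and 91.9, or 163 ± 2.4 against 94.0 ± 3.0 (SD, n = 2). Treated libraries were far above the controls. The log2 change was 0.80 (SE 0.06, adjusted p = 1.19e-07 in edgeR). At 20 of its 21 introns both treated libraries were higher, and at 1 they overlapped, where 33.1% of all introns with enough spliced reads were higher. At intron 9, for example, 14.4 and 16.3 CPM stood against 7.72 and 7.16. The rise was 1.82-fold over introns 1 to 7, 1.82-fold over introns 8 to 14 and 1.58-fold over introns 15 to 21.

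SMG6, the endonuclease of the pathway (chromosome 17, minus strand), had the deepest fall of the 9. It is listed with 5 of 18 introns, introns 14 to 18, so its values speak of the 3′ end of the gene only and the other introns were not analysed here. Spliced reads numbered 28 and 40 in the H3B-8800 libraries and 140 and 137 in the DMSO ones, or 2.45 and 3.22 CPM against 9.73 and 9.53. Means were 2.83 ± 0.55 and 9.63 ± 0.15 (SD, n = 2), and both treated libraries were far below both controls. The log2 change was -1.76 (SE 0.24, adjusted p = 2.11e-05 in edgeR). Lower values were found at 4 of the 5 introns, beside 38.2% of all introns with enough spliced reads. The groups overlapped at intron 15, where 4 and 18 reads stood against 17 and 33. Relative to SMG5, per listed intron, SMG6 was at 0.0636 and 0.0819 with H3B-8800 and at 0.425 and 0.435 with DMSO.

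**Figure D2:**
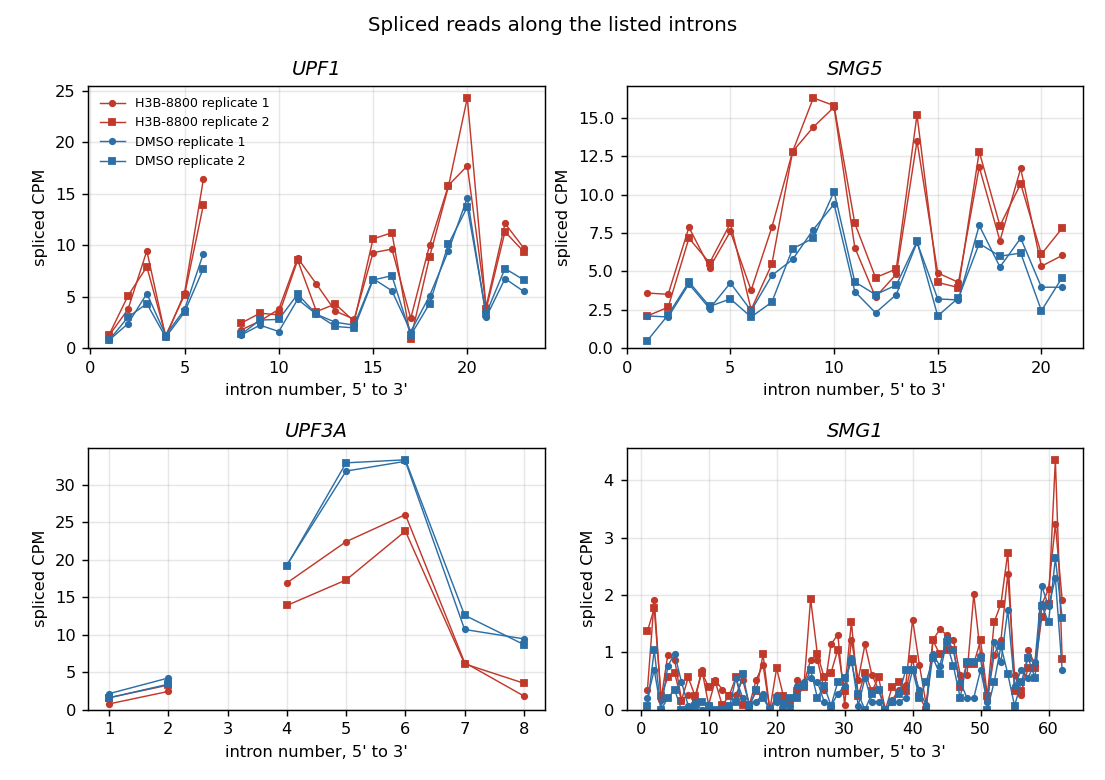
Spliced CPM at each listed intron, numbered 5′ to 3′, for UPF1, SMG5, UPF3A and SMG1 in the 4 libraries; lines are broken at introns not analysed here. The H3B-8800 libraries (red) run above DMSO (blue) over most of UPF1 and SMG5 and below it from intron 4 on in UPF3A, while most SMG1 introns are under 2 CPM.

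The order of levels, in CPM per listed intron, differed between the groups. Dividing by introns does not make genes fully comparable, since spliced CPM varied between introns of the same gene. In UPF1 with DMSO replicate 1, for example, it was 0.765 at intron 1 and 14.6 at intron 20. The order therefore depends on which introns are listed, and SMG6 is listed with 5 of 18. With DMSO, UPF3B (16.7 ± 0.96, SD, n = 2) and UPF3A (15.9 ± 0.088) led and overlapped. SMG9 (4.90), UPF2 (4.73), UPF1 (4.52), SMG5 (4.48) and SMG8 (3.89 ± 2.5) followed, of which UPF1, SMG5 and SMG8 overlapped their neighbours in the order, and SMG6 (1.93) and SMG1 (0.479) came last. With H3B-8800 the order was UPF3B (17.5), UPF3A (10.4), SMG5 (7.78), UPF1 (7.19), UPF2 (5.29), SMG9 (4.27), SMG8 (3.82), SMG1 (0.767) and SMG6 (0.567), and no neighbours overlapped. SMG5 and UPF1 therefore stood above UPF2 and SMG9 in the treated libraries and below them in the controls.

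Intronic reads of the 9 genes together were a larger share of their reads after H3B-8800. The treated libraries held 808 and 913 intronic beside 8726 and 9355 spliced reads, and the DMSO libraries 586 and 500 beside 9170 and 9463. The intronic share was 8.47% (95% Wilson interval 7.93 to 9.05) and 8.89% (8.36 to 9.46) against 6.01% (5.55 to 6.50) and 5.02% (4.61 to 5.46); intervals cover counting error only, and reads are not independent molecules. Means of 8.68% ± 0.29 and 5.51% ± 0.70 (SD, n = 2) differ 1.58-fold, and the groups do not overlap. Over all listed introns the share rose too, to 8.19% and 8.24% from 4.23% and 4.24%, so a rise is not particular to these genes. No test was made of the difference in share, since 2 libraries against 2 allow an exact permutation p of 0.33 at the smallest. As a mean of the 9 genes' own shares, which gives each gene equal weight, the values were 14.7% ± 1.9 and 5.97% ± 0.61, a ratio of 2.46. SMG6 (32.3% against 7.97%) and SMG8 (30.3% against 3.97%), which have few reads, weigh heavily in it. The same mean over all genes is not given here, so 2.46 cannot be set against the rise over all listed introns.

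By gene, the ratio of intronic to spliced reads rose in 7 of the 9 and fell in none, where 65.4% of 7566 tested genes rose and 2.35% fell, a share of the same order. The genes that rose were UPF1, UPF2, UPF3A, UPF3B, SMG6, SMG8 and SMG9. Their median log2 change with SMG1 and SMG5 included was 1.78, beside 1.35 over all genes. Within the UPF group, UPF1 went from 20 and 15 intronic reads with DMSO to 133 and 144 with H3B-8800, and its intronic share from 1.21% ± 0.25 to 6.84% ± 0.029 (SD, n = 2). The log2 change of its ratio was 2.58 (SE 0.29, adjusted p = 1.77e-06 in edgeR). UPF3B went from 15 and 8 intronic reads to 48 and 43, with a ratio change of 2.18 (SE 0.37, adjusted p = 0.000105). So the ratio rose both in UPF1, whose spliced reads rose, and in UPF3B, whose spliced reads did not pass. With only introns free of annotated exons 6 of the 9 genes could be tested, and UPF1, UPF3A and SMG8 rose; UPF2 (0.57, adjusted p = 0.156), SMG1 and SMG5 did not pass, and UPF3B, SMG6 and SMG9 had too few such reads.

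UPF3A was the gene of the 9 with most intronic reads in the controls, 328 and 265, against 216 and 283 with H3B-8800. Its intronic share was 15.6% ± 2.1 with DMSO and 22.2% ± 3.5 with H3B-8800 (SD, n = 2). The ratio change of 0.63 (SE 0.23, adjusted p = 0.0235) was lost without H3B-8800 replicate 2 (0.235) or DMSO replicate 2 (0.14). UPF2, with 123 and 92 intronic reads against 63 and 65, changed by 0.85 (SE 0.27, adjusted p = 0.0109), which was lost without H3B-8800 replicate 1 (0.166). Both ratio changes were below the median of all genes, but UPF3A was at 1.35 (adjusted p = 0.00438) over its introns free of annotated exons.

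In the SMG1 complex the ratio rose in both partners and did not pass in the kinase, a contrast that was not itself tested. SMG1 had 78 and 77 intronic reads in the H3B-8800 libraries and 73 and 58 in the DMSO ones, shares of 12.0% ± 0.55 and 13.3% ± 1.6 (SD, n = 2), and its ratio change of -0.16 (SE 0.28, adjusted p = 0.628) did not pass. SMG8 had 54 and 65 against 5 and 7, shares of 30.3% ± 3.5 and 3.97% ± 1.7, and the highest ratio change of the 9 genes at 3.54 (SE 0.49, adjusted p = 1.29e-05). For SMG9, 109 and 141 stood against 46 and 54, shares of 15.8% ± 1.5 and 5.17% ± 0.64, with a change of 1.78 (SE 0.27, adjusted p = 2.94e-05). Among the effectors, SMG5 had 38 and 41 intronic reads against 24 and 16, and its change of 0.45 (SE 0.33, adjusted p = 0.237) did not pass. SMG6, with 9 and 27 against 12 and 12, had a raised ratio (2.54, SE 0.57, adjusted p = 0.000994) although its intronic counts overlap, since its spliced reads were so much fewer.

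**Figure D3:**
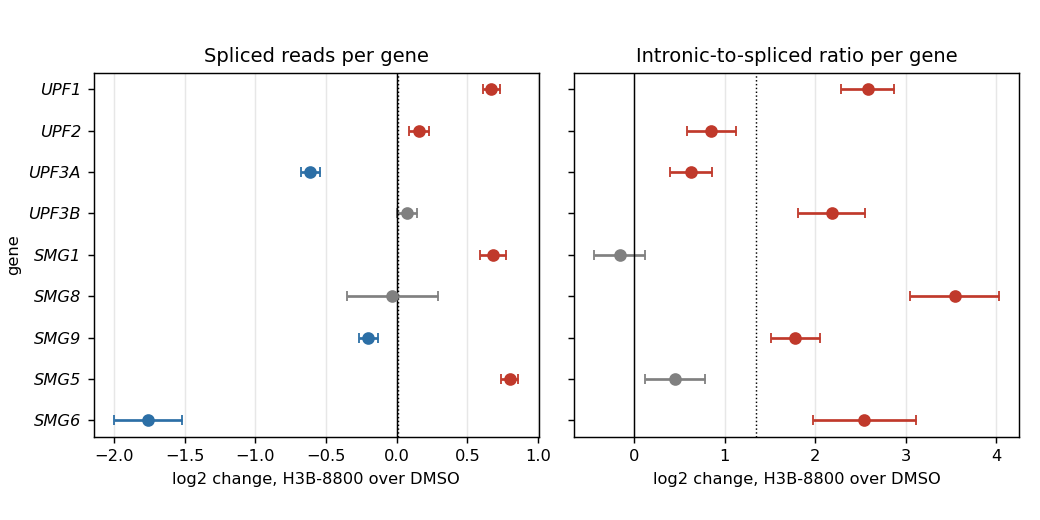
Log2 change with H3B-8800 over DMSO of spliced reads (left) and of the intronic-to-spliced ratio (right) per gene, with bars of 1 SE; red passed upward, blue passed downward, grey did not pass, and the dotted line is the median of all tested genes. The ratio rose in 7 genes, among them UPF3A, SMG6 and SMG9, whose spliced reads fell.

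Of the 161 introns, 62 held no intronic reads in any library, 34 of these in SMG1. Only 18 of the 62 SMG1 introns had a mean of at least 10 spliced reads. At such low depth, or in a short intron, 0 reads says little about splicing, and the share of such introns over all genes is not given here. At single introns, the intronic-to-spliced ratio could be tested in 14 (at least 10 intronic and 10 spliced reads on average), in 7 of the 9 genes; none of SMG1 or SMG5 qualified. It rose in 8 of the 14 and fell in none, where 56.5% of 9937 introns rose and 2.88% fell. On the log2 scale the 14 introns had a median of 1.76, and all tested introns 1.62. All 4 tested introns that are the last of their transcript rose, in UPF2, UPF3A, SMG6 and SMG8, and 4 of the 10 others did. Over all genes 67.1% of last listed introns and 53.8% of others rose. A gene's last listed intron need not be the last of its transcript. The 8 raised introns were between 315 and 8557 bp long, all interrupted the coding region, and in 6 of them GENCODE places an exon of another transcript or gene, whose reads cannot be told apart from reads of the kept intron.

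UPF1 intron 5 (chr19:18850869-18852134, 1266 bp) had 38 and 54 intronic reads in the H3B-8800 libraries and 2 and 0 in the DMSO ones, beside 61 and 64 against 54 and 50 spliced reads. Its ratio change of 5.08 (SE 0.81, adjusted p = 0.000265 in edgeR) was the largest of the 14. The count of 0 in DMSO replicate 2 allows up to 3 reads, 6% of the spliced count there. UPF1 intron 15 (chr19:18857534-18860320, 2787 bp), the first sequence shown above, had 39 and 27 against 4 and 4 intronic reads, beside 106 and 132 against 97 and 95 spliced ones, a change of 2.69 (SE 0.59, adjusted p = 0.00214). At both introns intronic reads went up while spliced reads did not go down, and GENCODE places another UPF1 exon inside each.

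UPF3B intron 9 (chrX:119838052-119838366, 315 bp) had 38 and 43 against 7 and 8 intronic reads, beside 413 and 424 against 469 and 551 spliced ones. In CPM its spliced reads overlapped, at 36.1 and 34.1 against 32.6 and 38.3. The ratio change of UPF3B intron 9 was 2.70 (SE 0.41, adjusted p = 0.000203). The first 46 bases of this intron run to an in-frame stop, as shown above. It held 79.2% and 100% of the gene's intronic reads in the treated libraries and 46.7% and 100% in the DMSO ones. GENCODE places another UPF3B exon inside it. In SMG8, intron 3 (chr17:59213602-59214804, 1203 bp, the last and with no annotated exon) held 52 and 63 against 4 and 4, beside 60 and 50 against 37 and 84 spliced reads. The change of 3.90 (SE 0.60, adjusted p = 0.000216) passed in spite of the wide gap between its DMSO replicates in spliced reads, and intronic reads made up nearly as many as, or more than, the spliced ones in the treated libraries only.

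SMG9 intron 9 (chr19:43734496-43737596, 3101 bp), the purine-rich end shown above, had 71 and 95 against 34 and 38 intronic reads, and 75 and 67 against 110 and 106 spliced ones. The change was 1.80 (SE 0.41, adjusted p = 0.00271 in edgeR). At this intron intronic reads were higher and spliced reads lower in both treated libraries, and GENCODE places another SMG9 exon inside it. UPF3A intron 8 (chr13:114302026-114304788, 2763 bp, the last and with no annotated exon) had 76 and 104 against 73 and 64 intronic reads but 21 and 44 against 136 and 125 spliced ones, a change of 2.43 (SE 0.40, adjusted p = 0.000351). There the change in ratio lay mainly in the spliced reads: the intronic reads alone had a log2 change of 0.48 (adjusted p = 0.109).

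SMG6 intron 18 (chr17:2061623-2065072, 3450 bp, the last) had 9 and 25 against 8 and 10 intronic reads, and only 4 and 3 spliced reads in the H3B-8800 libraries against 24 and 28 in the DMSO ones. Its ratio change was 3.68 (SE 0.87, adjusted p = 0.00334 in edgeR), again with overlapping intronic counts. GENCODE places another SMG6 exon inside this intron and an exon of HIC1 on the opposite strand, and it is not known here whether counting used the strand. UPF2 intron 21 (chr10:11921308-11929864, 8557 bp, the last) had 37 and 30 against 14 and 7, beside 41 and 50 against 52 and 41, a change of 1.72 (SE 0.57, adjusted p = 0.0206). That call was lost without H3B-8800 replicate 1 (0.13), without DMSO replicate 2 (0.0798) and in DESeq2 (0.0654); an exon of the small RNA pseudogene RNU6-1095P lies in it on the other strand.

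**Figure D4:**
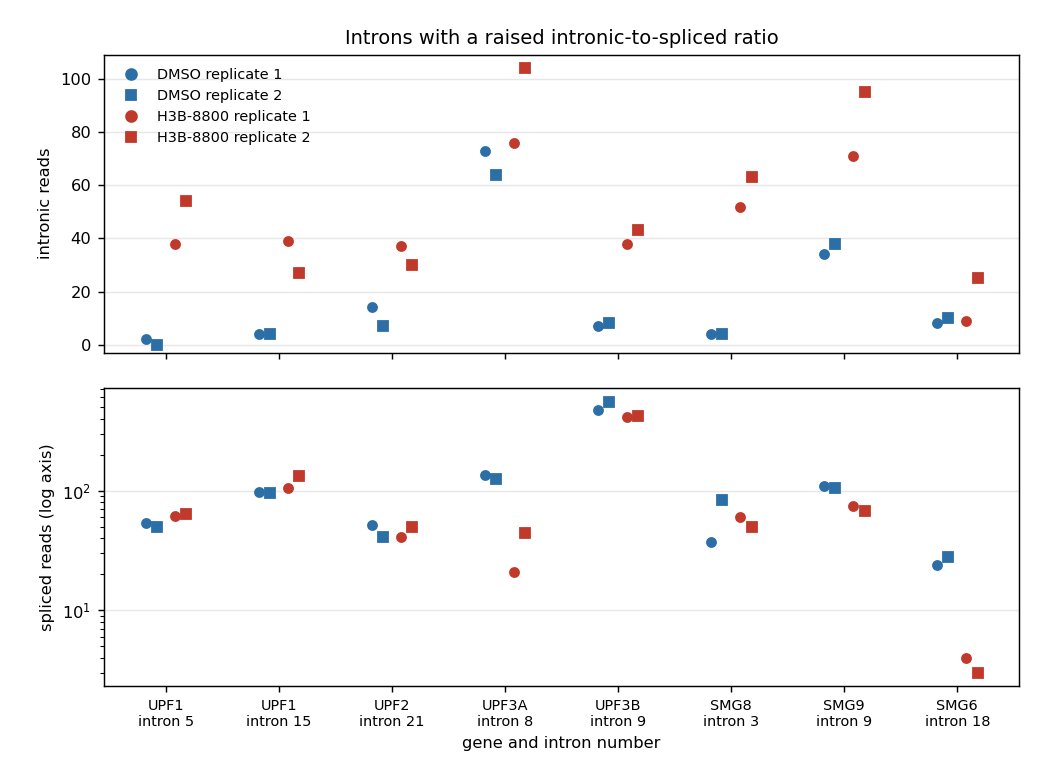
Intronic reads (top) and spliced reads (bottom, log axis) in each library for the 8 introns with a raised intronic-to-spliced ratio. Counts are not scaled to library size. Intronic reads separate the groups at 7 introns and overlap at SMG6 intron 18. Spliced reads are fewer in both H3B-8800 libraries at UPF3A intron 8, UPF3B intron 9, SMG9 intron 9 and SMG6 intron 18. On the CPM scale the groups overlap at UPF3B intron 9.

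Of the 14 introns, 6 did not pass. UPF3A intron 4 (chr13:114286630-114291488), with the 80-base run to a stop shown above, had 96 and 119 intronic reads in the H3B-8800 libraries and 160 and 137 in the DMSO ones, beside 193 and 173 against 278 and 276 spliced ones. Its ratio change of 0.13 (SE 0.31, adjusted p = 0.727) did not pass, as both kinds of read were fewer. UPF2 intron 3, the longest of the 14 tested at 14560 bp, had a ratio of 53.8% and 42.1% against 25.9% and 42.5%, which overlap. The other 4 were UPF2 intron 18, UPF3A introns 1 and 2 and SMG9 intron 7, with log2 changes of -0.18, -0.63, 0.91 and 0.94. With a lower minimum of 3 reads on average, 30 introns could be tested and 10 rose, 7 of the 8 above (not UPF2 intron 21) and 3 more. These were UPF1 intron 20, with 12 and 19 intronic reads against 0 and 0 (adjusted p = 0.00539), UPF2 intron 4, with 3 and 10 against 0 and 0 (0.0369), and SMG9 intron 10, with 6 and 11 against 2 and 0 (0.0319). The last 3 were named after their values were seen. The share of all introns that rose at the minimum of 3 reads is not given here, so 10 of 30 has no background beside it.

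Intronic reads taken alone, scaled by library totals, could be tested at 17 introns, of which 7 rose and 1 fell, where 48.2% and 5.74% of 12013 introns did. The 7 were UPF1 introns 5 and 15, UPF2 intron 21, UPF3B intron 9, SMG1 intron 51, SMG8 intron 3 and SMG9 intron 9. SMG1 intron 51 (chr16:18830370-18832939) had 27 and 36 against 16 and 14 intronic reads but at most 3 spliced reads in any library; its change was 1.15 (SE 0.43, adjusted p = 0.0409). That call was lost in DESeq2 (0.186), with TMM, where the change was 0.11 (0.853), and in each of the 4 fits without a library, where the change was 0.98 to 1.30. The intron that fell was UPF3A intron 1, with 10 and 27 against 65 and 41 reads (-1.43, SE 0.45, adjusted p = 0.0212). Without H3B-8800 replicate 1 or without replicate 2 no intron of any gene passed (smallest adjusted p 0.094 and 0.093, with 4254 of 11278 and 4070 of 10837 introns at an unadjusted p under 0.05; DESeq2 was not run there). Those fits therefore say little about single introns, and the changes in them were of similar size for UPF1 intron 5 (5.63 and 5.22), UPF3B intron 9 (2.55 and 2.46) and SMG8 intron 3 (3.98 and 3.80). With TMM scaling of intronic reads 4 rose and 2 fell. In SMG5 the intron with most intronic reads was intron 1, with 13 and 5 against 6 and 7.

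Around the 9 factors, 79 entries of 5 pathway lists were looked up, and 72 were tested for spliced reads: 29 rose, 28 fell and 15 did not pass, where 32.8% of all genes rose and 32.7% fell. Among 12 other NMD cofactors 4 rose and 8 fell, against the same shares of all genes (median log2 change -0.33). RUVBL2, an ATPase of the complex that helps assemble SMG1, had 204 and 219 CPM in the H3B-8800 libraries against 506 and 516 in DMSO (-1.27, SE 0.05, adjusted p = 5.23e-10 in edgeR), and PPP2CA, a catalytic subunit of the phosphatase that acts on UPF1, had 290 and 295 against 183 and 170 CPM (0.73, SE 0.05, adjusted p = 8.52e-08). In neither gene did the groups overlap: RUVBL2 was lower and PPP2CA higher in both treated libraries.

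Of 10 exon junction complex genes 8 rose and 1, MAGOHB, fell, where 32.8% and 32.7% of all genes did (median 0.75, beside 0.01 over all genes). PNN, SAP18 and RNPS1, peripheral proteins of the complex, rose by 1.39, 0.88 and 1.07 on the log2 scale; RNPS1, for example, had 197 and 214 against 99.3 and 96.1 CPM. MAGOHB, a core subunit with a near copy in MAGOH, had 22.5 and 28.0 against 43.2 and 41.7 CPM. Of 6 tested genes of translation termination and poly(A) binding 1 rose and 5 fell (median -0.23), against the same shares of all genes. PABPC4 changed by -0.60, ABCE1, which splits ribosomes after termination, by -0.61, and PABPC1, the main cytoplasmic poly(A)-binding protein, by -0.24.

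Among 31 tested genes of decapping, deadenylation and exonuclease decay 11 rose, 9 fell and 11 did not pass (median 0.11). Over all tested genes 32.8% rose and 32.7% fell. CNOT1, the scaffold of the main deadenylase, had 340 and 334 CPM against 143 and 152 (1.19, SE 0.05, adjusted p = 1.35e-09 in edgeR). EXOSC8 and EXOSC10 of the RNA exosome fell by 1.53 and 0.93 on the log2 scale. Of 13 tested genes whose mRNAs are textbook NMD targets 5 rose, 5 fell and 3 did not pass (median 0.16), against the same shares of all genes. CHAC1, a glutathione-degrading enzyme, had 9.88 and 15.3 CPM in the H3B-8800 libraries against 2.15 and 2.29 in the DMSO ones (2.50, SE 0.26, adjusted p = 2.45e-06). DDIT3, the stress transcription factor CHOP, had 15.6 and 14.1 against 4.59 and 4.87 (1.65, SE 0.18, adjusted p = 3.57e-06), and ARFRP1, a small GTPase, had 10.4 and 11.2 against 24.1 and 30.9 (-1.35, SE 0.15, adjusted p = 3.23e-06). CHAC1 and DDIT3 are also genes of the stress response, and the list as a whole did not lean one way.

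**Figure D5:**
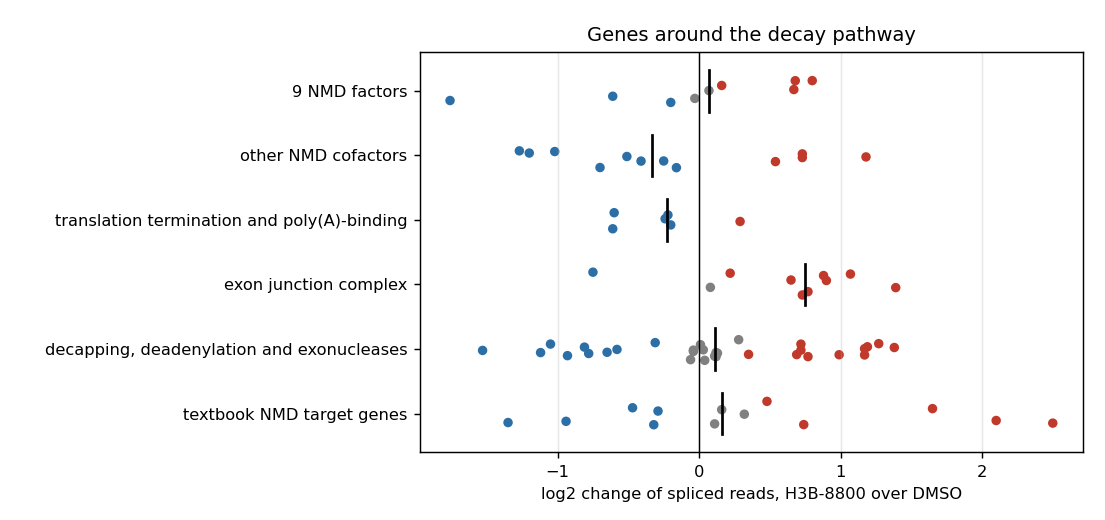
Log2 change of spliced reads with H3B-8800 over DMSO for each tested gene of the 9 NMD factors and 5 lists around them; red passed upward, blue downward, grey did not pass, and black bars are list medians. The exon junction complex has 8 of 10 genes passing upward, and the other lists spread to both sides.

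The genes with a pattern most like that of UPF1 over the 4 libraries, by Euclidean distance between centred log2 CPM values, were SLC38A2 (0.0138), SOAT1 (0.0202) and TXLNG (0.0251) of 9467 compared. In all, 801 genes lay within a distance of 0.2, so the likeness is a common one: with 4 libraries in 2 groups it says little more than that these genes rose by a like amount. SLC38A2 had 206 and 208 CPM in the H3B-8800 libraries against 130 and 131 in the DMSO ones.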

How the data were processed

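Cytoplasmic polyadenylated RNA of SUM159 cells was sequenced with a strand-specific kit, per the labels' protocols, in 2 H3B-8800 and 2 DMSO libraries. The submitters' processing notes name HISAT2 2.0.4, hg38 and mm10; the counting tool and its use of strand are not given in the sources used here. The authors deposited, without a header, 2 read counts and an RPKM value for each of 142224 introns, 1 transcript per gene; 18 introns lacked the second count. The deposited RPKM gave back the library totals. That the first count is reads inside the intron and the second also those spanning it was inferred from the values. File positions are the flanking exon bases, so introns are printed 1 base inside them; 99.9% are introns of GENCODE 29.

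Counts were tested over the whole tables with edgeR 4.0.16 (quasi-likelihood, R 4.3.3; Benjamini-Hochberg threshold 0.05): spliced reads summed per gene (TMM, mean of at least 1 CPM), intronic reads per intron (library totals, mean of at least 10) and the intronic-to-spliced ratio as the interaction of read kind and treatment, with a term per library (mean of at least 10 for both). Standard errors (SE) follow from the fold and its F value. The tests were tested on simulated counts. DESeq2 1.42.0, other scalings, filters and left-out libraries were the alternatives. The members and lists were chosen with earlier results of these data known. Named are all 9 factors, the 3 genes of each list with the smallest adjusted p (1 of them is not reported here), for each factor up to 3 introns with the smallest adjusted p in the ratio test and the one with most intronic reads, and the 3 genes nearest to UPF1; other introns, luminal, blood and endothelial markers and MAGOHB were named after their values were seen. Sequences are from GENCODE 29 transcripts.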

Additional observations from a re-analysis of the deposited data

How the results depend on the processing

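UPF1, UPF3A, SMG1, SMG5 and SMG6 kept the direction and the call of their spliced reads under every alternative run, with adjusted p up to 0.00444 for the 5 genes. UPF2 and UPF3B changed sign with library totals (-0.01 and -0.11), and SMG8 changed sign with the replicate block (0.06), without H3B-8800 replicate 2 (0.07) and without DMSO replicate 2 (0.83), with a range of -0.57 to 0.83 over the left-out libraries. The replicate numbers in the titles were not taken as pairs, since deviations of same-numbered libraries correlated at 0.0693 over 9468 genes; with the block 4 factors rose and 3 fell in spliced reads, 6 introns rose and 1 fell in intronic reads, and 8 introns and 7 genes rose in the ratio.

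For intronic reads, 7 rises became 4 with TMM scaling, 4 with a minimum mean of 1 read and 0 to 8 with a library left out, and 1 fall became 2, 0 (also 0 in DESeq2) and 0 to 1. The 0 without either H3B-8800 library holds for introns of all genes and speaks of the small design, not of these introns. With TMM the intronic change turned to -0.48 for UPF2 intron 3, -0.88 for UPF2 intron 18, -0.70 for UPF3A intron 2, -0.56 for UPF3A intron 8, -0.37 for SMG1 intron 55, -0.05 for SMG6 intron 18 and -0.08 for SMG9 intron 7. Over the left-out libraries it ran from -0.08 (DMSO replicate 2) to 0.44 for UPF2 intron 18, and from -0.53 (H3B-8800 replicate 1; -0.17 for DMSO replicate 2) to 1.09 for UPF3A intron 2. The ratio ran from -0.11 (H3B-8800 replicate 1) to 1.75 for UPF3A intron 2 and from -0.10 (H3B-8800 replicate 2) to 0.36 for UPF3A intron 4. None of these intron results had passed the test, and the cause was not tested.

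With only introns free of annotated exons, 3 genes rose in the ratio (UPF1, UPF3A and SMG8) in place of 7, since UPF3B, SMG6 and SMG9 had too few such reads and UPF2 did not pass (0.57), and SMG1 turned to 0.13. The 1.58-fold difference in intronic share was 2.46 as a mean of the factors' shares and 1.45 to 1.73 with a library left out. Among all values of single genes and introns under an alternative, 309 kept direction and call, 49 lost the call, 4 gained it and 18, all given above, changed sign. Depth let 14 of 161 introns into the ratio test, and 30 with a minimum mean of 3 reads, of which 10 rose. The share over all genes' introns at that lower minimum is not given here.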
